A study of Mus musculus with 12 samples.

Results

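Expression of 10 genes of the BMP pathway was followed by RNA-seq through 4 groups of the mouse mammary epithelial line CommaDβ. They were the ligand genes Bmp2, Bmp4 and Bmp7, the genes of the secreted antagonists Grem1, Nog and Fst, the target genes Id1, Id2 and Id3, and the inhibitory SMAD gene Smad6. The members were taken by name, and each matched a row among the 21671 named genes of the table. Every group had 3 libraries, 12 in all, made from total RNA of cells sorted on Sca-1, the surface protein encoded by Ly6a. Scahigh cells were uninfected Sca-1-positive cells, which the labels describe as basal and undifferentiated, and Scalow cells were uninfected Sca-1-negative cells, described as luminal and differentiated. ScahighNT cells were Sca-1-positive cells that carried pSliK34a, a lentiviral vector with a doxycycline-inducible miR-34a, and received no doxycycline. Scahigh34a cells carried the same vector and received doxycycline for 24 h. CommaDβ is a line described as normal mammary epithelium that holds both sorted populations, and the 4 groups stand for states of that line rather than for tissue. The drug and the miRNA cannot be told apart, since no group of vector-free cells with doxycycline was analysed here. Infection, the uninduced vector and the handling of infected cells likewise cannot be told apart in ScahighNT against Scahigh. Whether replicate libraries derive from different cultures is not said in the labels, and p-values therefore cover a spread that may be technical.

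BMPs are secreted ligands of the TGF-β superfamily. They bind pairs of type I and type II receptor kinases, which phosphorylate SMAD1 and SMAD5, and these enter the nucleus with SMAD4. Gremlin 1 (Grem1) and noggin (Nog) bind BMPs outside the cell and keep them from their receptors, while follistatin (Fst) binds activins most tightly and some BMPs as well. ID proteins carry a helix-loop-helix domain without a DNA-binding region and hold E proteins, such as those encoded by Tcf3, Tcf4 and Tcf12, away from DNA. Their genes are among the best known direct BMP targets, and so is Smad6, whose product dampens the pathway. In the mouse mammary gland, BMP signals act in the embryonic bud and in the nipple region, and Id2 is needed for the growth of alveoli in pregnancy.

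The mature sequence of the induced miRNA, from RefSeq on GRCm38.p6 (chr4:150068473-150068494, plus strand), is printed first because its seed sets the sites that were searched. Capitals mark the seed, bases 2 to 8, and in the lines of Grem1 and Bmp7 the matching 7 bases in the 3′ UTR.
mmu-miR-34a-5p: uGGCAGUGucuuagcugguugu
Grem1: aaggcagacattCACTGCCcatcaaag
Bmp7: atctaagtctctCACTGCCcaccttgg
In the longest annotated 3′ UTR of each member (GENCODE transcripts of GRCm38), the 7-base sites CACTGCC and ACTGCCA were searched on the strand of the transcript, and a site that held both was counted as 1. Grem1 had 1 site, at base 1757 of a 3436-base UTR (chr2:113747837-113747843, minus strand), and Bmp7 had 1 site, at base 73 of a 2125-base UTR (chr2:172870058-172870064, minus strand). No match was found in the other 8 members. A match was held by 19.8% of the 21020 genes with an annotated 3′ UTR, and the 8-base form CACTGCCA by 4.91%, with none among the members.

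The promoters of a pair of ID genes and of Smad6, which holds a SMAD box, are printed next, each from 250 bases before to 50 bases after the start of the gene in RefSeq (GRCm38.p6). They are those of Id2 (chr12:25096043-25096342, minus strand), Id3 (chr4:136143572-136143871, plus strand) and Smad6 (chr9:64022010-64022309, minus strand). Capitals mark GGCGCC, a GC-rich element described in BMP-responsive promoters, and GTCTAGAC, the palindromic SMAD box.
Id2: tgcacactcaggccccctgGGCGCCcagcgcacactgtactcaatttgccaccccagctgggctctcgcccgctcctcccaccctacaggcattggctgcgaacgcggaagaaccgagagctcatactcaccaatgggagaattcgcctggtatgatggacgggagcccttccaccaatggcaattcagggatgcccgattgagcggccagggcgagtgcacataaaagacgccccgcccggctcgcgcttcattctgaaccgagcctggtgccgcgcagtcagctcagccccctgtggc
Id3: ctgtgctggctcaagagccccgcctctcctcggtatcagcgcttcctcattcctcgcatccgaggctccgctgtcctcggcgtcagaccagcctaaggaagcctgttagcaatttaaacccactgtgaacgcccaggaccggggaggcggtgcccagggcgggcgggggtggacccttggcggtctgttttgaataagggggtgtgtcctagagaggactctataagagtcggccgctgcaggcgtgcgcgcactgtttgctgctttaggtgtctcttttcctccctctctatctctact
Smad6: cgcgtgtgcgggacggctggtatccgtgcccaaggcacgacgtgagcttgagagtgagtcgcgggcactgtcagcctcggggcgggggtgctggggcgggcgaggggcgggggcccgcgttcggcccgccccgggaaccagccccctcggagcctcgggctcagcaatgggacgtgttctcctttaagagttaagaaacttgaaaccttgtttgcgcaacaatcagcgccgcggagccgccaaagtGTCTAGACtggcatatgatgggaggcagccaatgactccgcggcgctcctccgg
Promoters were matched for 5 of the 10 members. GGCGCC began 231 bases before the RefSeq start of Id2 and 78 bases before that of Grem1. The windows of Id2 and Id3 lie within the GENCODE gene spans given below, whose starts are further upstream. GTCTAGAC began 4 bases before the start of Smad6 and ran past it. The promoters of Id3 and Bmp4 held neither. Both motifs read the same on either strand and do not overlap each other. GGCGCC was present in 11.9% of 32851 promoters of the same length and GTCTAGAC in 0.213%. A match describes the letters of the window and not a bound site.

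Library totals were 33637245 to 41801449 reads. Libraries 3 (Scahigh) and 12 (Scahigh34a) stood apart from the others of their groups, with a chi-square per gene of 45.9 to 118 in the 4 pairs that held them and of 9.12 to 27.5 in the other 8 pairs within groups. Summed RPKM was 202827 and 197730 in libraries 1 and 2 (Scahigh), against 221355 to 258816 in all others. Within Scahigh, these values do not tell whether library 3 or libraries 1 and 2 are the unusual ones. The labels were checked on genes outside the list. Mir34a was at 74.8 to 128 scaled RPKM in Scahigh34a and at 0 to 0.928 elsewhere, as titles and source names say, while a genotype label of the infected samples reads the other way round. Ly6a averaged 11.4 in Scahigh against 1.32 in Scalow, Krt5 of basal cells 502 against 31.4, and Krt18 of luminal cells 8.91 against 548. Summed over 8 endothelial markers the level was at most 0.229 in any library, and over 6 adipocyte markers at most 0.540. Over 8 immune markers it was 0.972 to 1.25 in Scahigh, 1.13 to 1.43 in Scalow, 1.60 to 1.74 in ScahighNT and 1.15 to 1.36 in Scahigh34a. Most of this was Cd68, with means of 1.05, 0.811, 1.62 and 1.19 in the same order. Below 0.1 in every library were 7 of the 8 in Scahigh, ScahighNT and Scahigh34a, and 6 in Scalow. The 1 tested gene of that list was called higher in ScahighNT than in Scahigh (0.58). The part of cells of these types in the differences of the members was not tested. In bulk RNA, fewer cells of a type and less RNA per cell cannot be told apart.

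Levels are given as scaled RPKM, reads normalized to gene length and library depth and then brought to a common scale across libraries, so that they can be compared between genes. A gene was called when limma's Benjamini-Hochberg adjusted p was below 0.01 and the log2 fold change of scaled RPKM + 0.1 was over 0.5 in size. Id1, Id2 and Id3 were at 1 RPKM or more in all 12 libraries. Bmp2 and Grem1 reached that level in the 3 ScahighNT libraries alone and Fst in the 3 Scalow libraries alone, and they passed the filter of 1 RPKM in 3 libraries through those groups. Bmp4, Bmp7, Nog and Smad6 did not reach it in any library, so their tests come from a fit of all 18850 genes above 0. On the log2(value + 0.1) scale their changes are understated.

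In the fit of all genes, 7 of the 10 members were called in Scahigh minus Scalow, 1 higher and 6 lower, where 29.4% of all genes were called. In Scahigh34a minus ScahighNT, 3 were called, all lower (Grem1, Bmp2 and Id3), which is near the 25.8% of all genes. ScahighNT minus Scahigh had 7 called members, 5 higher and 2 lower, against 16.1% of genes. The other comparisons share libraries with these. They had 8 called members in Scahigh34a minus Scahigh (32.5% of genes), 6 in Scahigh34a minus Scalow (38.7%) and 5 in ScahighNT minus Scalow (28.2%). Among the 10586 genes that passed the filter, the called shares were 40.4% for Scahigh minus Scalow, 38.9% for Scahigh34a minus ScahighNT, 21.6% for ScahighNT minus Scahigh, 47.4% for Scahigh34a minus Scahigh, 54.9% for Scahigh34a minus Scalow and 38.5% for ScahighNT minus Scalow. The members were listed with earlier results of these data known, so their counts describe them and are no independent evidence.

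**Figure D1:**
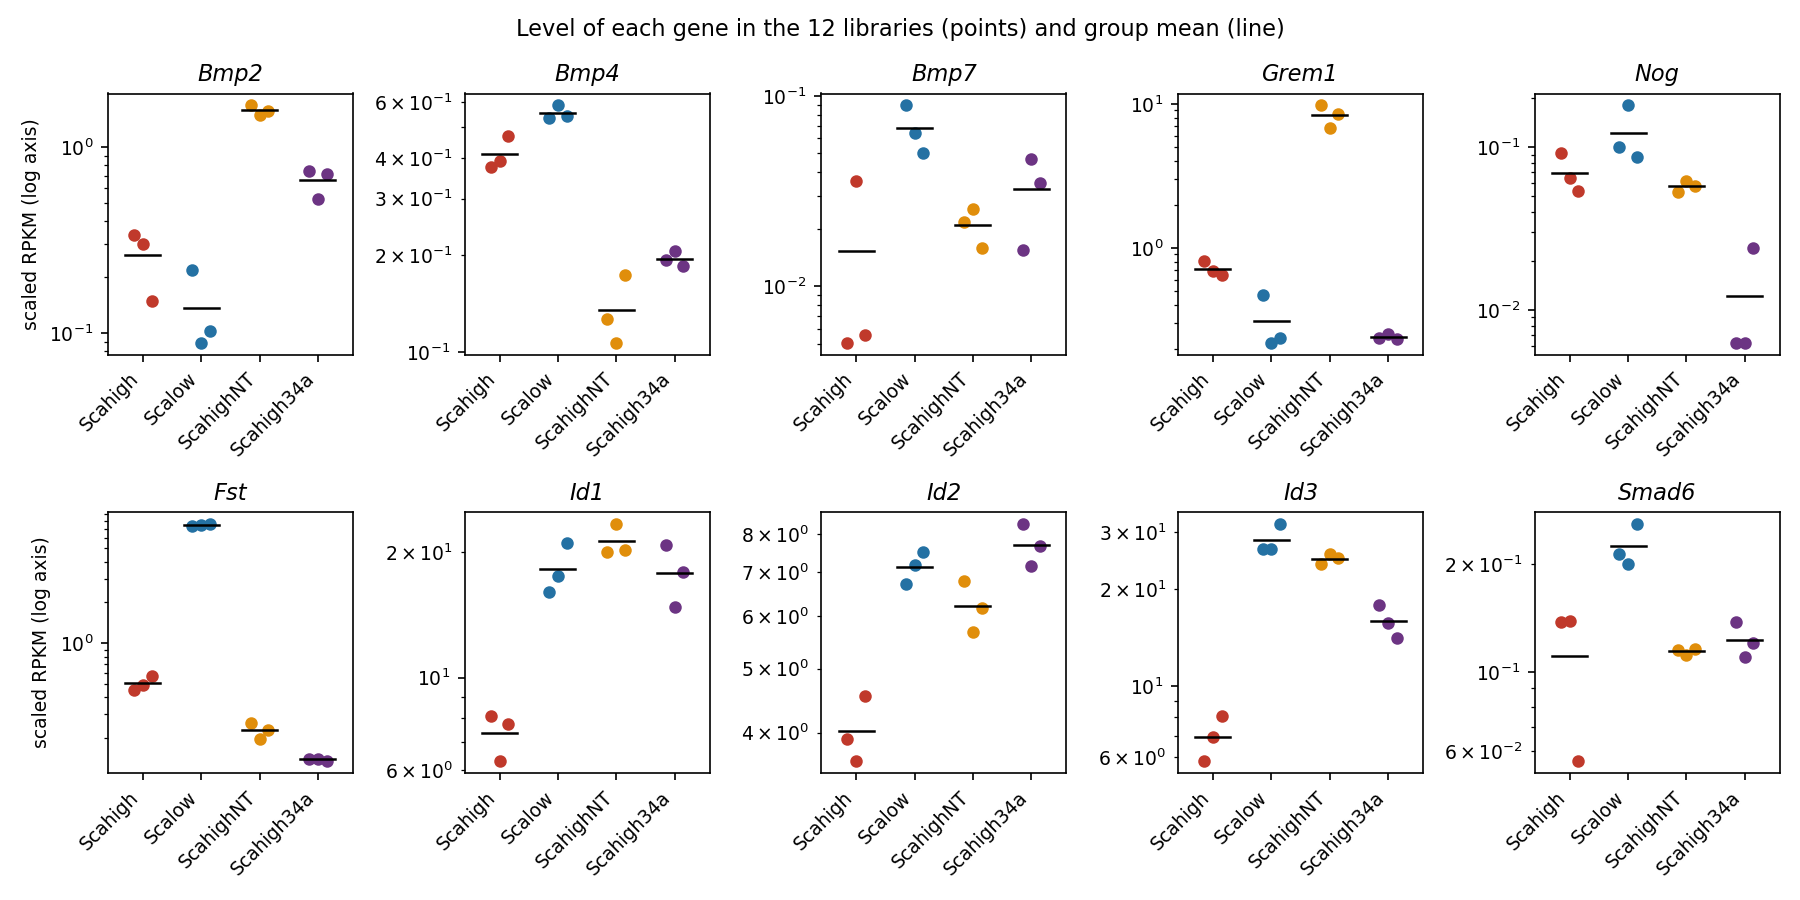
Scaled RPKM (log axis, a different range in each panel) of the 10 genes in the 12 libraries; points are libraries and lines are means of 3. Grem1 and Bmp2 were highest in ScahighNT, Fst was at 7.34 to 7.59 in Scalow and at most 0.575 elsewhere, and Id1, Id2 and Id3 were lowest in Scahigh.

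Among the ligands, Bmp2 was high in the cells with the vector and Bmp4 in the cells without it. Bmp2 (chr2:133552159-133562885, plus strand, GRCm38) encodes a ligand best known for bone formation. It was at 0.335, 0.301 and 0.148 in Scahigh, at 0.219, 0.0887 and 0.102 in Scalow, at 1.67, 1.48 and 1.56 in ScahighNT, and at 0.742, 0.528 and 0.719 in Scahigh34a. The ScahighNT libraries stood above all others and the Scahigh34a libraries next, with no overlap, while Scahigh and Scalow overlapped. ScahighNT exceeded Scahigh by 2.25 on the log2 scale (SE 0.23, limma adjusted p = 1.2e-05), a ratio of means of 6.01. With doxycycline the level was lower by a log2 fold change of -1.14 (SE 0.23, adjusted p = 0.0011), a ratio of ScahighNT to Scahigh34a of 2.37, and it still lay 1.11 above Scahigh (adjusted p = 0.0011). Scahigh minus Scalow was 0.61 (SE 0.23) with an adjusted p of 0.036 and was not called. That result turned on single libraries, since it was called without library 3 (0.87, adjusted p = 0.0029), without library 4 (0.84, adjusted p = 0.0068) and without libraries 3 and 12 together (0.88, adjusted p = 0.0026).

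Bmp4 (chr14:46383520-46390669, minus strand) encodes a close relative of BMP2. It was at 0.376, 0.394 and 0.471 in Scahigh, at 0.533, 0.585 and 0.542 in Scalow, at 0.127, 0.107 and 0.173 in ScahighNT, and at 0.193, 0.206 and 0.185 in Scahigh34a. These values rest on 18 to 94 reads per library. The 4 groups did not overlap, and the infected cells held the lower levels. ScahighNT was below Scahigh by a log2 fold change of -1.13 (SE 0.11, adjusted p = 2.5e-05), a ratio of Scahigh to ScahighNT of 3.05, and Scahigh34a was below Scahigh by -0.80 (adjusted p = 0.00013). Neither Scahigh minus Scalow (-0.35, SE 0.11, adjusted p = 0.024) nor Scahigh34a minus ScahighNT (0.33, SE 0.11, adjusted p = 0.035) was called. Relative to Scahigh, Bmp2 and Bmp4 thus moved in opposite directions in ScahighNT, and each was called.

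Bmp7 (chr2:172868012-172940321, minus strand), the ligand of kidney and eye development, was close to the limit of detection. Its reads were 1, 6 and 1 in Scahigh, 15, 12 and 9 in Scalow, 4, 5 and 3 in ScahighNT, and 3, 9 and 7 in Scahigh34a. Scahigh and Scalow did not overlap and differed by -0.54 (SE 0.12, adjusted p = 0.003), but the call was lost without library 1, 3 or 4, with adjusted p of 0.017, 0.014 and 0.015. Scahigh34a minus ScahighNT was 0.12 (SE 0.12, adjusted p = 0.48). At a mean of 0.0211 in ScahighNT, no fall could reach the fold threshold once 0.1 is added. The result therefore cannot speak to the seed site in the 3′ UTR.

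Summed over the 3 ligands, levels were 0.691 ± 0.0576 (SD, n = 3) in Scahigh, 0.758 ± 0.0761 in Scalow, 1.73 ± 0.108 in ScahighNT and 0.891 ± 0.0948 in Scahigh34a. The make-up of that sum differed between groups. Bmp4 was 63.3% to 79.3% of it in Scalow, whereas Bmp2 was 89.2% to 91.8% in ScahighNT and 67.6% to 78.0% in Scahigh34a.

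Of the antagonists, Grem1 marked the uninduced infected cells and Fst the Scalow cells. Grem1 (chr2:113746164-113758646, minus strand) was at 0.815, 0.689 and 0.643 in Scahigh, at 0.472, 0.219 and 0.235 in Scalow, at 9.76, 6.76 and 8.49 in ScahighNT, and at 0.235, 0.251 and 0.232 in Scahigh34a. In reads, ScahighNT libraries held 936 to 1265 and Scahigh34a libraries 32 to 34. Every ScahighNT library was above every library of the other groups, and Scahigh34a fell within the range of Scalow. Scahigh34a minus ScahighNT was -4.62 (SE 0.20, adjusted p = 2.2e-09), and the ScahighNT mean was 34.8 times that of Scahigh34a. ScahighNT minus Scahigh was 3.36 (SE 0.20, adjusted p = 1.4e-07), an 11.6-fold ratio. The level with doxycycline was also below that of uninfected cells, as Scahigh34a minus Scahigh was -1.26 (SE 0.20, adjusted p = 0.00014), a ratio of Scahigh to Scahigh34a of 2.99. Scahigh exceeded Scalow by 1.04 (SE 0.20, adjusted p = 0.0007), and Scahigh34a minus Scalow was -0.22 (SE 0.20, adjusted p = 0.34), a difference whose sign depends on library 4 (0.025 without it).

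Fibroblasts are a known source of gremlin 1 in tissues, so markers of those cells are given beside Grem1. Over 10 fibroblast markers the summed level was 1.71 to 2.35 in Scahigh, 0.554 to 0.637 in Scalow, 2.32 to 2.92 in ScahighNT and 0.620 to 0.777 in Scahigh34a. The collagen genes Col1a1 and Col1a2, which define such cells, were at means of 0.0511 and 0.00646 in ScahighNT and 0.472 and 0.0395 in Scahigh, and Lum, Thy1 and Dpt were at 0 in each ScahighNT library. Dcn alone among the 10 passed the filter, with 1.72 in ScahighNT, 0.224 in Scahigh and 0.268 in Scahigh34a, and it changed by 2.48 in ScahighNT minus Scahigh and by -2.29 in Scahigh34a minus ScahighNT. Pdgfra, a receptor gene of such cells that did not pass the filter, ran in the order of Grem1 over the groups, at means of 0.230 in Scahigh, 0.0933 in Scalow, 0.354 in ScahighNT and 0.0573 in Scahigh34a. Its reads summed to 776 in ScahighNT and 130 in Scahigh34a. Pdgfrb, also below the filter, was at 0.684, 0.0525, 0.203 and 0.0392 in the same order of groups. Basal markers also moved with Grem1 under doxycycline, as 7 of 8 tested were lower in Scahigh34a than in ScahighNT, where 38.9% of all tested genes were called. Their summed level was 497 to 564 against 2078 to 2308, and 1377 to 1674 in Scahigh. In ScahighNT minus Scahigh, where Grem1 rose, 1 of the 8 was higher, 2 were lower and 5 were not called. In Scahigh minus Scalow, 6 were higher and 0 lower. The part of these cells or states in the Grem1 difference was not tested.

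Fst (chr13:114452290-114458951, minus strand) was at 0.457, 0.496 and 0.575 in Scahigh, at 7.34, 7.42 and 7.59 in Scalow, at 0.259, 0.197 and 0.229 in ScahighNT, and at 0.141, 0.142 and 0.135 in Scahigh34a. The 4 groups did not overlap. Scahigh minus Scalow was -3.64 (SE 0.09, adjusted p = 2.6e-11), with a Scalow mean 14.6 times that of Scahigh. In this comparison 8 of 8 tested luminal markers were lower in Scahigh too, where 40.4% of all tested genes were called. Of the 8, 5 were lower and 0 higher in ScahighNT minus Scahigh, and 2 were higher and 0 lower in Scahigh34a minus ScahighNT. The part of luminal cells or states in the Fst differences was not tested. Among Sca-1-positive cells, ScahighNT was below Scahigh by -0.89 (SE 0.09, adjusted p = 1.2e-05). The further difference with doxycycline was -0.45 (SE 0.09, adjusted p = 0.0011), under the fold threshold, and was called with a pseudocount of 0.01 (-0.66) and with limma-voom on reads (-0.69).

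Nog (chr11:89300638-89302332, minus strand) was read 15, 9 and 8 times in Scahigh, 14, 28 and 13 times in Scalow, 8, 10 and 9 times in ScahighNT, and 1, 1 and 4 times in Scahigh34a. The Scahigh34a libraries were below all others. Scahigh34a was lower than Scalow by a log2 fold change of -0.97 (SE 0.14, adjusted p = 9.8e-05) and than Scahigh by -0.60 (SE 0.14, adjusted p = 0.0039). The latter call was lost without library 1, 2, 10 or 11, with adjusted p up to 0.021. Scahigh34a minus ScahighNT was -0.49 (SE 0.14, adjusted p = 0.014) and not called, although it was called with a pseudocount of 0.01 (-1.69, adjusted p = 0.0016) and with limma-voom on reads (-2.17, adjusted p = 0.0019). All 3 antagonists thus had their lowest mean in Scahigh34a, although the step to the next group was not called for any of them (Scalow for Grem1, ScahighNT for Fst and Nog).

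**Figure D2:**
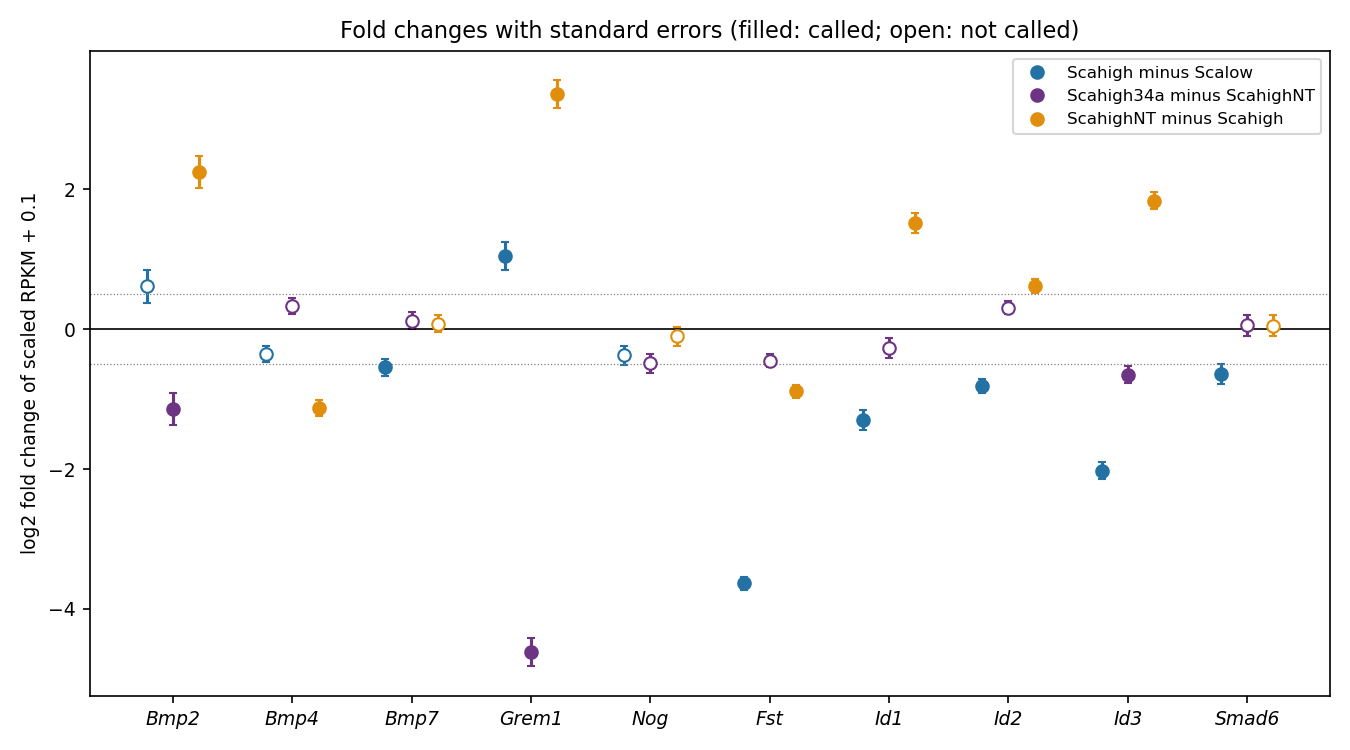
Log2 fold change of scaled RPKM + 0.1 with its standard error for the 10 genes in 3 comparisons; filled points were called, open points were not, and dotted lines mark the fold threshold of 0.5. Grem1 reached 3.36 in ScahighNT minus Scahigh and -4.62 in Scahigh34a minus ScahighNT, and Fst -3.64 in Scahigh minus Scalow.

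Since RPKM is given per gene length, ligands and antagonists can be summed and set side by side as a description of transcript levels. The 3 antagonists summed to 1.29 ± 0.0602 in Scahigh (SD, n = 3), 7.88 ± 0.0555 in Scalow, 8.62 ± 1.53 in ScahighNT and 0.391 ± 0.00799 in Scahigh34a. Scalow and ScahighNT were similar in this sum but not in its members. Fst made up 92.8% to 95.9% of it in Scalow and 2.57% to 2.81% in ScahighNT, while Grem1 made up 2.81% to 5.96% and 96.3% to 96.9%. With Fst counted, antagonist over ligand level was 1.71 to 2.04 in Scahigh libraries, 9.40 to 11.4 in Scalow, 4.36 to 5.52 in ScahighNT and 0.402 to 0.510 in Scahigh34a. On that count the summed ligands exceeded the summed antagonists in the 3 Scahigh34a libraries and in no other. This order holds for the summed genes alone, since genes outside the list are left out on both sides. In Scahigh34a the secreted modulator genes Bmper and Fstl1 averaged 1.77 and 19.9, and the ligand gene Gdf11 6.43. Grem1 and Nog without Fst summed to 0.697 to 0.906 in Scahigh, 0.322 to 0.572 in Scalow, 6.82 to 9.81 in ScahighNT and 0.241 to 0.257 in Scahigh34a, so that Scalow libraries too then lay below their ligand sums of 0.694 to 0.842. The proteins were not measured, and follistatin and gremlin differ in what they bind.

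**Figure D3:**
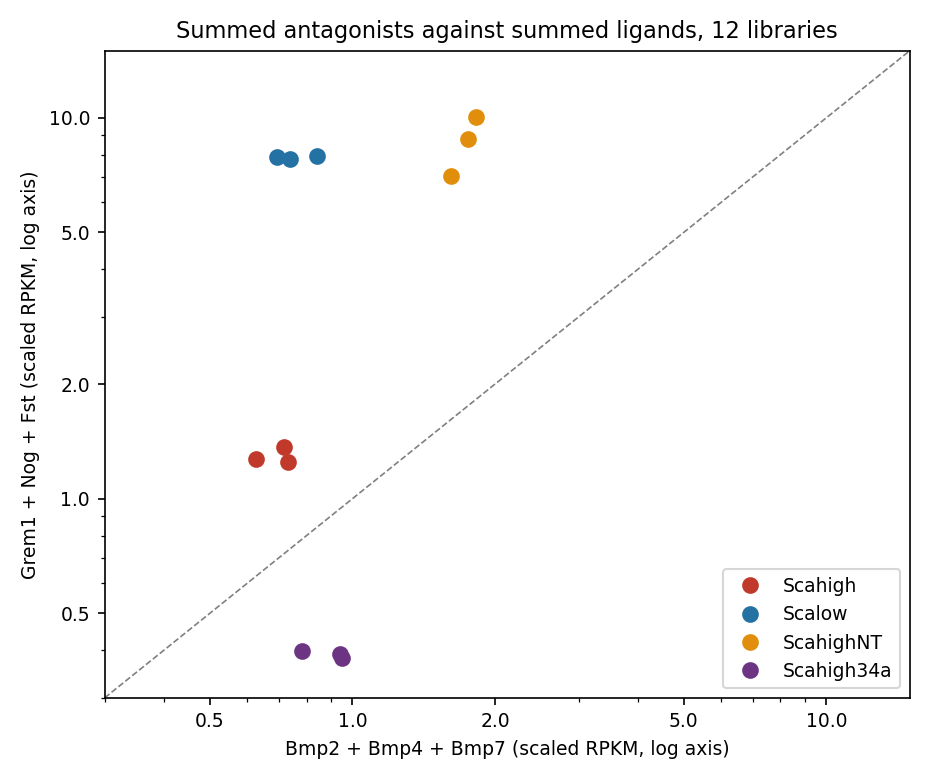
Summed Grem1, Nog and Fst against summed Bmp2, Bmp4 and Bmp7 (scaled RPKM, log axes), 1 point per library; the dashed line marks equal sums. Scahigh34a libraries lie below the line at ratios of 0.402 to 0.510, and the other groups, with Fst counted, lie above it. Other ligand and antagonist genes are not in the sums.

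The ID genes were together low in Scahigh and higher in the other 3 groups. Id1 (chr2:152736251-152737410, plus strand) was at 8.10, 6.29 and 7.73 in Scahigh, at 16.1, 17.6 and 21.1 in Scalow, at 20.1, 23.4 and 20.3 in ScahighNT, and at 20.8, 14.7 and 17.9 in Scahigh34a. All 3 Scahigh libraries lay below the other 9, which overlapped. Scahigh minus Scalow was -1.29 (SE 0.14, adjusted p = 7.5e-06) and ScahighNT minus Scahigh 1.52 (SE 0.14, adjusted p = 5.3e-06). Scahigh34a minus ScahighNT was -0.26 (SE 0.14, adjusted p = 0.12), and Scahigh34a minus Scalow was -0.039 (SE 0.14, adjusted p = 0.81), with a sign that turned under both other scalings.

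Id2 (chr12:25093799-25097140, minus strand) was at 3.91, 3.62 and 4.54 in Scahigh, at 6.72, 7.18 and 7.51 in Scalow, at 6.80, 5.69 and 6.18 in ScahighNT, and at 8.29, 7.16 and 7.68 in Scahigh34a. Scahigh was again below every other library. Scahigh minus Scalow was -0.82 (SE 0.10, adjusted p = 1.5e-05), ScahighNT minus Scahigh 0.62 (SE 0.10, adjusted p = 0.00029) and Scahigh34a minus Scahigh 0.93 (SE 0.10, adjusted p = 4.3e-06). With doxycycline the difference from ScahighNT was 0.31 (SE 0.10, adjusted p = 0.015), not called, although the groups did not overlap.

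Id3 (chr4:136143497-136145755, plus strand) spanned the widest range of the ID genes. It was at 5.83, 6.92 and 8.08 in Scahigh, at 26.7, 26.7 and 31.9 in Scalow, at 24.0, 25.7 and 24.9 in ScahighNT, and at 17.8, 15.7 and 14.1 in Scahigh34a. The groups did not overlap, with Scahigh lowest and Scahigh34a in between. Scahigh minus Scalow was -2.03 (SE 0.12, adjusted p = 3.2e-08), with a Scalow mean 4.10 times that of Scahigh, and ScahighNT minus Scahigh was 1.84 (SE 0.12, adjusted p = 3.1e-07). Id3 was the 1 ID gene called under doxycycline, at -0.65 in Scahigh34a minus ScahighNT (SE 0.12, adjusted p = 0.00054), while it remained 1.19 above Scahigh (SE 0.12, adjusted p = 3.5e-06). ScahighNT minus Scalow was -0.19 (SE 0.12, adjusted p = 0.19).

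The 3 ID genes summed to 16.8 to 20.4 in Scahigh, 49.5 to 60.5 in Scalow, 50.8 to 54.8 in ScahighNT and 37.6 to 46.9 in Scahigh34a. Id3 made up 51.9% to 53.9% of the sum in Scalow and 35.5% to 41.8% in Scahigh34a. Over the 12 libraries, which share these group differences, Pearson's r of the log2 levels was 0.91 for Id1 with Id3, 0.86 for Id1 with Id2 and 0.78 for Id2 with Id3, given as a description. Id4, the remaining ID gene of the mouse and taken up after its values were seen, did not follow them. It averaged 15.5 in Scahigh, 15.2 in Scalow, 4.47 in ScahighNT and 6.09 in Scahigh34a. Id4 was lower in ScahighNT than in Scahigh by -1.78 (SE 0.13, adjusted p = 6.7e-07), where the other 3 rose, and Scahigh minus Scalow was 0.022 (SE 0.13, adjusted p = 0.89).

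**Figure D4:**
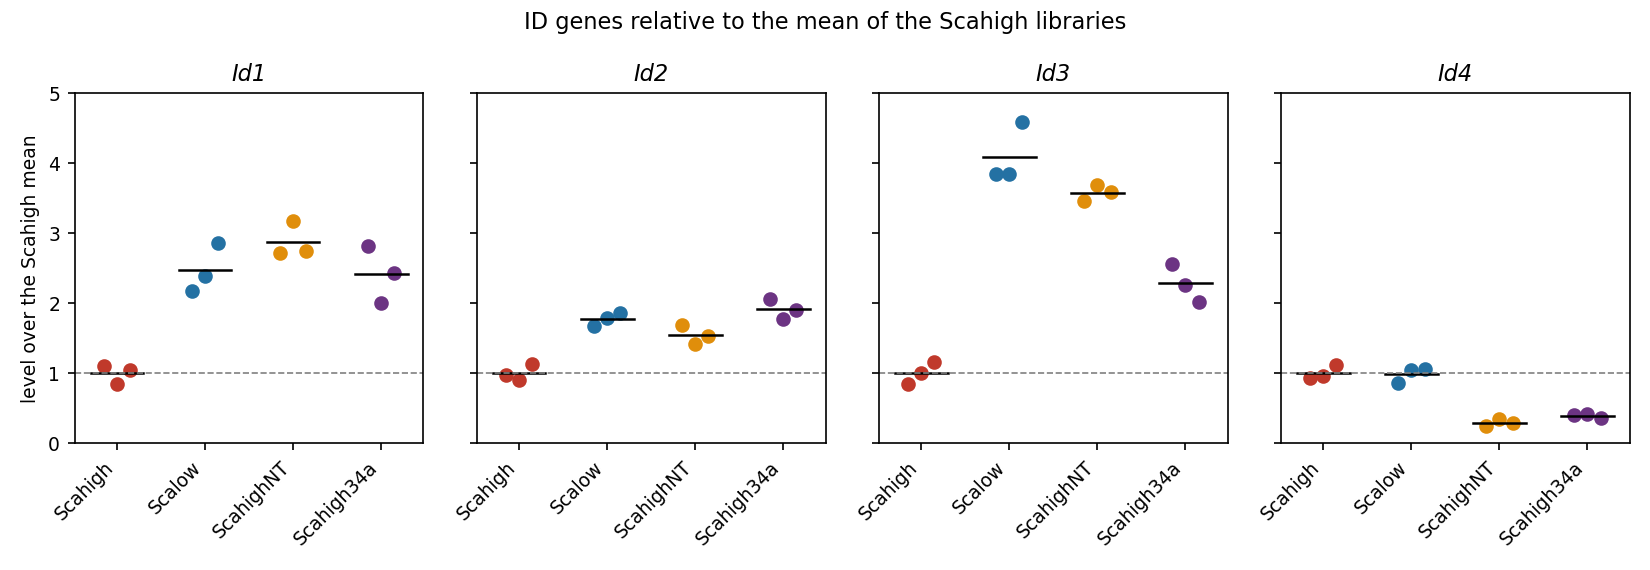
Level of Id1, Id2, Id3 and Id4 in each library over the mean of the 3 Scahigh libraries of that gene (linear axis from 0); lines are group means and the dashed line is 1. Id1, Id2 and Id3 lie above the line in the other 3 groups, and Id4 lies below it in both infected groups.

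Smad6 (chr9:63953076-64022059, minus strand), whose promoter holds the SMAD box printed above, was low throughout. It was read 35, 30 and 13 times in Scahigh, 46, 48 and 60 times in Scalow, 27, 28 and 28 times in ScahighNT, and 34, 27 and 31 times in Scahigh34a. Scaled levels were 0.138, 0.139 and 0.056 in Scahigh and 0.214, 0.20 and 0.260 in Scalow, so Scalow stood above the rest and library 3 was the lowest of all. Scahigh minus Scalow was -0.64 (SE 0.15, adjusted p = 0.0037), and -0.43 without library 3, under the fold threshold. That call was lost in 6 of 21 alternatives, among them without library 4 (adjusted p = 0.011) and without library 6 (adjusted p = 0.018). ScahighNT minus Scalow (-0.59, adjusted p = 0.0062) and Scahigh34a minus Scalow (-0.54, adjusted p = 0.0085) were called, but were lost in 11 and 14 of 21 alternatives. ScahighNT minus Scahigh was 0.048 (SE 0.15, adjusted p = 0.85), where Id1, Id2 and Id3 rose, and its sign depended on library 3 (-0.18 without it).

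Beyond the members, 77 gene names of the pathway were listed, a few of them second names of a listed gene, and 34 genes passed the filter. Of these, 9 were higher and 7 lower in Scahigh minus Scalow, 1 higher and 7 lower in Scahigh34a minus ScahighNT, and 4 higher and 14 lower in ScahighNT minus Scahigh. Of all tested genes, 40.4%, 38.9% and 21.6% were called in these comparisons. Of 14 further BMP and GDF ligands with a row, Gdf11, a regulator of axial patterning, was the 1 that could be tested. It rose by 0.87 in ScahighNT minus Scahigh (SE 0.12, adjusted p = 0.00012).

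Receptors and co-receptors (6 of 11 tested) had 2 genes higher and 1 lower in Scahigh minus Scalow, where 40.4% of all tested genes were called. The median of the list was 0.66 against -0.0036 over all tested genes. The type I receptor gene Bmpr1a was at 13 ± 1.3 in Scahigh and 21.7 ± 0.27 in Scalow, a change of -0.74 (SE 0.09, adjusted p = 1.2e-05). Acvr1, another type I receptor gene, changed by 0.81 (SE 0.23, adjusted p = 0.0094), close to the threshold of 0.01. Acvr1 was at 9.34, 9.44 and, in library 3, 4.83 in Scahigh, and at 3.55 to 4.80 in Scalow. Rgmb, a co-receptor gene, was 1.18 higher (SE 0.19, adjusted p = 0.00017). In ScahighNT minus Scahigh, 3 of the 6 receptor genes were lower and none higher, where 21.6% of all tested genes were called. The related co-receptor gene Rgma was the receptor gene called with doxycycline, at 0.647 ± 0.11 in ScahighNT and 0.271 ± 0.093 in Scahigh34a (-1.03, SE 0.25, adjusted p = 0.0035).

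Other secreted antagonists and modulators (6 of 15 tested) had 3 genes higher and none lower in Scahigh minus Scalow, with a median of 0.33. Of all tested genes, 40.4% were called there. Fstl1, which encodes a follistatin-like glycoprotein, was at 20.1 ± 1.4 in Scahigh and 2.01 ± 0.54 in Scalow (3.29, SE 0.14, adjusted p = 1.5e-09), the reverse of Fst. Nbl1, a gene of the DAN family to which Grem1 belongs, was 0.61 higher (SE 0.10, adjusted p = 0.00025). Bmper, whose product binds BMPs outside the cell, was at 1.16 ± 0.089 in Scahigh, 0.380 ± 0.096 in Scalow, 4.75 ± 0.13 in ScahighNT and 1.77 ± 0.028 in Scahigh34a. It was called in the same directions as Grem1 in the 3 comparisons, at 1.41, -1.37 and 1.94. Bmp1, which encodes a protease that cleaves the BMP antagonist chordin and not a BMP ligand, was the 1 pathway gene higher with doxycycline (0.66, SE 0.08, adjusted p = 1.1e-05).

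SMADs and their regulators (11 of 13 tested) had 3 genes lower and none higher in Scahigh34a minus ScahighNT, where 38.9% of all tested genes were called. The median of the list was -0.31 against -0.033 over all tested genes. Smad1, a transducer of BMP signals, was at 8.49 ± 0.15 in ScahighNT and 4.73 ± 0.31 in Scahigh34a (-0.83, SE 0.06, adjusted p = 2.2e-07). Ctdsp1, of a phosphatase family that acts on SMADs, fell by 1.05 (SE 0.08, adjusted p = 3e-07), and Ski, a gene of a SMAD corepressor, fell by 0.64 (SE 0.14, adjusted p = 0.002). Smad5 changed by -0.060 and Smad4 by -0.34, and neither was called. Between the sorted populations, Ctdsp2 (1.26) and Ski (0.76) were higher in Scahigh, and Smurf1, a ubiquitin ligase gene that acts on BMP SMADs, was lower (-0.78, SE 0.10, adjusted p = 3.8e-05).

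Among 5 tested of 14 further target genes, the homeobox gene Msx2 was at 0.0429 ± 0.011 in Scahigh and 1.19 ± 0.13 in Scalow (-3.17, SE 0.12, adjusted p = 4.4e-10). Tnfrsf11b, which encodes osteoprotegerin, was at 0.114 ± 0.012 and 4.95 ± 0.35 (-4.56, SE 0.10, adjusted p = 1.2e-11). Like Fst, both had their highest mean in Scalow and passed the filter through the Scalow libraries alone. Gata3, a regulator of luminal cells, went the other way (1.21, SE 0.27, adjusted p = 0.0019). None of the 5 was called in Scahigh34a minus ScahighNT, and 4 were lower in ScahighNT than in Scahigh. Of all tested genes, 38.9% and 21.6% were called in these comparisons. Msx2 averaged 0.0302 in ScahighNT, too low for a fall with doxycycline to reach the fold threshold once 0.1 is added.

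Of 5 genes of activin and inhibin subunits, the proteins that follistatin binds, 2 were tested. Inhba was at 1.83 ± 0.63 in Scahigh, 4.07 ± 0.51 in Scalow, 5.62 ± 0.76 in ScahighNT and 2.10 ± 0.90 in Scahigh34a, called in Scahigh minus Scalow (-1.15), in Scahigh34a minus ScahighNT (-1.45) and in ScahighNT minus Scahigh (1.60). Inhbb was called lower in the same 3 comparisons, at -0.63, -1.15 and -0.58. Of the E protein genes, whose products ID proteins bind, Tcf12 was lower (-0.67, SE 0.06, adjusted p = 9.7e-07) and Tcf4 higher (0.92, SE 0.14, adjusted p = 0.00013) in Scahigh minus Scalow, and none was called with doxycycline.

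**Figure D5:**
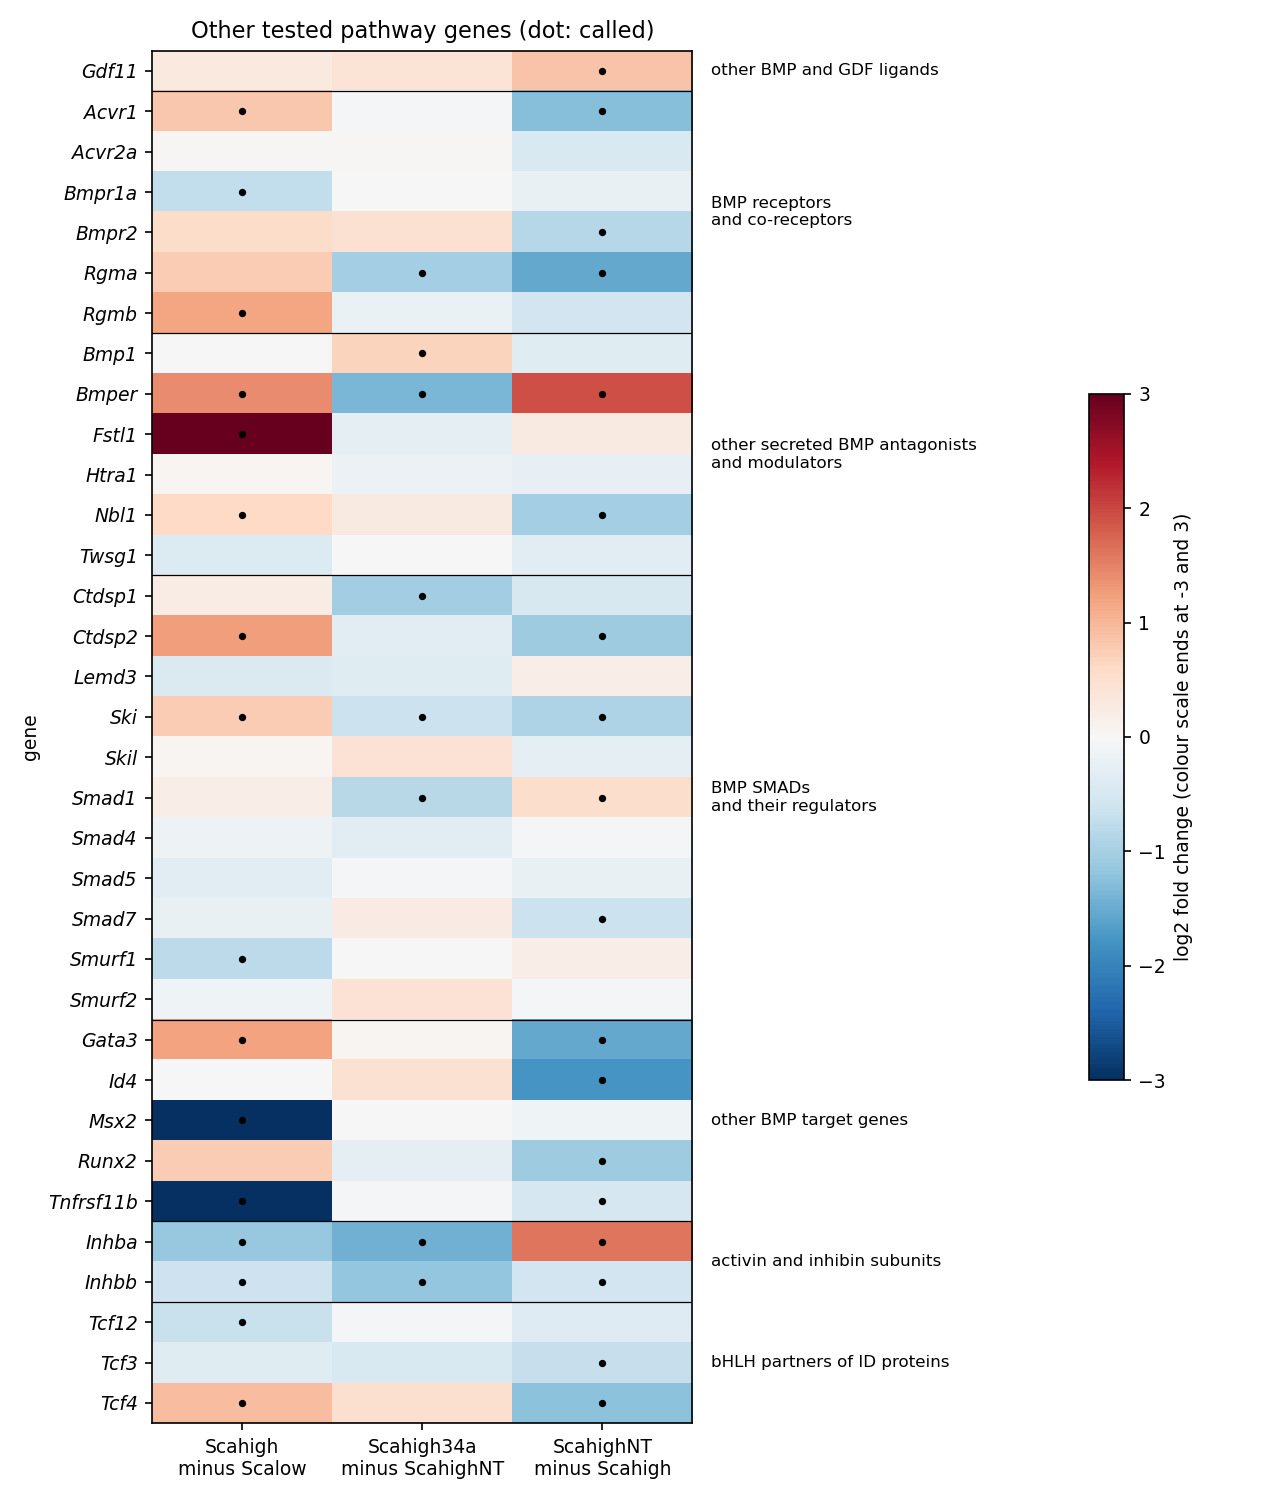
Log2 fold change of scaled RPKM + 0.1 (colour, ending at -3 and 3) of the 34 other tested pathway genes in 3 comparisons, grouped by list; dots mark called genes. Fstl1 (3.29), Msx2 (-3.17) and Tnfrsf11b (-4.56) go beyond the colour scale in Scahigh minus Scalow, and 7 of the 8 dots in Scahigh34a minus ScahighNT are falls.

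Genes with the most similar pattern were named by Pearson's r of log2 levels over the 12 libraries, again as a description. They were sought for Bmp2, the 1 ligand that passed the filter, and for the tested antagonist and ID gene with the widest range. For Bmp2 they were Thbd (r = 0.98), Tnfaip2 (0.98) and Stfa3 (0.98). Thbd, the thrombomodulin gene, averaged 1.63 in Scahigh, 0.974 in Scalow, 16.2 in ScahighNT and 5.96 in Scahigh34a. For Id3 they were Il1rap (0.98), Tuba1a (0.98) and Nsun2 (0.97), and Il1rap, which encodes a receptor subunit for interleukin-1, averaged 1.33, 3.78, 3.11 and 2.14 in the same order. For Fst they were Zfp239, Arhgap28 and Shox2, each with r of 0.998. Zfp239 averaged 2.64 in Scalow and at most 0.228 elsewhere, and Arhgap28 4.46 and at most 0.502. Like Fst, they were high in Scalow alone, so r here mainly restates that group difference. Shox2, a homeobox gene, averaged 1.02 in Scahigh, 14.2 in Scalow, 0.407 in ScahighNT and 0.359 in Scahigh34a.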

How the data were processed

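The authors sequenced RNA of 12 libraries and deposited RPKM values, 1 for each gene in each library. The submitters' processing notes list TopHat2 2.0.6, mm9 and DESeq2; what counter and annotation were used is not given in the sources used here. Further columns by the authors hold the mean signal of normalized reads over 6 libraries in each of their comparisons, used here only to recover reads, and fold changes, p-values and selection marks, which were not used. Columns show the group but no replicate number, and 0 columns of library values were left unused. Rows without a symbol (182) held at most 0.0942% of reads and were left out.

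Reads behind the values were worked out from the steps between RPKM values (100% of 144019 values under 2000 reads were whole within 0.1 read). RPKM were scaled by a trimmed mean of M values (30% of M and 5% of A values trimmed at each end, on genes at 1 RPKM in 3 libraries). Differences were tested with limma 3.58.1 (R 4.3.3, trend, 8 residual degrees of freedom) on log2(scaled RPKM + 0.1), 1 mean per group, and the script was tested on simulated data. Tables and figures used Python 3.11.15, pandas 2.3.3 and matplotlib 3.10.9. Positions and 3′ UTRs came from GENCODE on GRCm38, another build than the authors'.

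The members and lists were chosen with earlier results of these data known. Text names all members, up to 3 called genes per direction and list with the smallest adjusted p in Scahigh minus Scalow and in Scahigh34a minus ScahighNT, and the 3 genes most correlated with 1 ligand, 1 antagonist and 1 ID gene, leaving out predicted genes. Gdf11, Id4, Smad4, Smad5, Cd68 and the fibroblast genes were named after their values were seen. Alternatives covered scaling, pseudocount, filter, groups in the fit, variance model, limma-voom and libraries left out.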

Additional observations from a re-analysis of the deposited data

How the results depend on the processing

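Of 60 comparisons of a member, 36 were called, and 21 of these were called under every alternative that tested them. None of the 36 turned its direction. Of the other 15, 10 were lost with a pseudocount of 1 and under no other alternative, and the rest concern Bmp7, Nog and Smad6, which had at most 60 reads in a library; the cause was not tested. Values not called changed sign for Grem1 in Scahigh34a minus Scalow (-0.40 to 0.025 with 1 library left out), for Id1 in Scahigh34a minus Scalow (0.010 with upper quartile scaling, 0.083 with RPKM as deposited, -0.16 to 0.11 with 1 library left out), for Smad6 in Scahigh34a minus Scahigh (-0.10 to 0.20 with 1 library left out, -0.084 without libraries 3 and 12) and for Smad6 in ScahighNT minus Scahigh (-0.014 with upper quartile scaling, -0.18 without libraries 3 and 12, -0.18 to 0.15 with 1 library left out).

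With genes at 1 RPKM in every library, fewer genes were tested, and 1323 were called in ScahighNT minus Scahigh and 2679 in ScahighNT minus Scalow, against 2282 and 4072. Only the ID genes were then tested among the members, with 3 called in Scahigh minus Scalow, 3 in Scahigh34a minus Scahigh, 1 in Scahigh34a minus ScahighNT, 1 in Scahigh34a minus Scalow, 3 in ScahighNT minus Scahigh and 0 in ScahighNT minus Scalow. Members called in Scahigh34a minus Scalow were 3 with the filter of 1 RPKM in 3 libraries, 6 with no filter and 5 at 0.1 RPKM in 3 libraries, and in ScahighNT minus Scalow 3, 5 and 5. With a pseudocount of 1, 3 of 6 tested members were called in Scahigh34a minus Scahigh. Limma-voom on the recovered reads called 4342 genes in Scahigh minus Scalow, 4231 in Scahigh34a minus ScahighNT and 2351 in ScahighNT minus Scahigh. Upper quartile scaling moved the median of all genes in ScahighNT minus Scahigh by -0.11 and its calls from 1103 higher and 1179 lower to 791 and 1610. RPKM as deposited moved the median in Scahigh34a minus Scalow by 0.12. No paired analysis was possible because the columns carry no replicate number.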
